A study of Mus musculus with 14 samples.

Results

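Gabra5, Akap6, Ust, Cxcl13, Cyp1b1 and Frmd3 are 6 of the 20638 genes counted in full-grown, germinal vesicle (GV)-intact mouse oocytes. They were chosen by their measured values, because their counts fell strongly in mutant oocytes against their own controls. No cutoff set who was taken. Their falls are therefore given below as a description, with no test. All 6 passed the filter on low counts in every comparison. Frmd3 and, in Dicer KO oocytes, Cxcl13 and Cyp1b1 had mutant libraries under 10 counts and passed against controls through those controls. Between Ago2 ADH and Ago2 null oocytes Frmd3 passed through replicate 2 of each, with 12 and 17 counts.

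The study compared oocytes lacking the slicing activity of AGO2, or AGO2 itself, or DICER, with matched controls in 14 libraries. In the Ago2 series, 3 libraries came from Ago2 fl/fl females, whose floxed gene is intact, and served as controls. Another 3 came from Ago2 ADH females (fl/ADH with Cre), whose oocytes keep a single allele, encoding catalytically inactive AGO2. A further 2 came from Ago2 null females (fl/fl with Cre). The second series held 3 Dicer WT and 3 Dicer KO libraries. Cre was driven by the Zp3 promoter, which becomes active in growing oocytes, so products made before excision can persist. Each library was made from 20 oocytes of females aged 4 to 6 weeks, which had received 5 IU of eCG, a gonadotropin that stimulates follicle growth, 48 h earlier. The design text gives 3 mice per library and the methods 3 or 4. The background is described as mostly C57BL6, from a cross of 3 transgenic strains. The deleted segment of each floxed gene was not given in the sources used here. Cumulus cells had been removed by pipetting.

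The genes belong to separate processes. Gabra5 encodes the alpha-5 subunit of the GABA-A receptor, a chloride channel opened by the transmitter GABA. Akap6 encodes mAKAP, a scaffold that holds protein kinase A at the nuclear envelope of heart and nerve cells. Ust encodes uronyl 2-O-sulfotransferase, which adds sulfate to chondroitin and dermatan sulfate chains. Cxcl13 encodes a chemokine that draws B cells through the receptor CXCR5. Cyp1b1 encodes a cytochrome P450 that hydroxylates estradiol and is induced through the aryl hydrocarbon receptor. Frmd3 encodes a protein with a FERM domain, a module that links membrane proteins to the cytoskeleton. In growing mouse oocytes DICER cuts long double-stranded RNA into endogenous siRNAs, and AGO2 loaded with them cleaves matching transcripts.

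The 6 genes lie on 6 chromosomes, and none of the promoter motifs searched was in all 6 windows. Promoter windows of 300 bases, from 250 before to 50 after the RefSeq start (GRCm38.p6), were found for 6 of 6 genes. That start is the first base of the counted transcript for Akap6 and Ust. It lies 50 bases upstream of it for Gabra5, whose window holds no base of the counted transcript, 12 upstream for Cxcl13, 20 upstream for Cyp1b1 and 159 downstream for Frmd3. Those of 4 genes are printed 5′ to 3′ on the strand of the gene, Gabra5 and Akap6 because they hold the same kinds of motif, and Cxcl13 and Cyp1b1 because each holds a dioxin response core, beside a TATA box in one and a GC box in the other. Capitals mark motifs found on either strand.
Gabra5 (chr7:57510010-57510309, minus strand): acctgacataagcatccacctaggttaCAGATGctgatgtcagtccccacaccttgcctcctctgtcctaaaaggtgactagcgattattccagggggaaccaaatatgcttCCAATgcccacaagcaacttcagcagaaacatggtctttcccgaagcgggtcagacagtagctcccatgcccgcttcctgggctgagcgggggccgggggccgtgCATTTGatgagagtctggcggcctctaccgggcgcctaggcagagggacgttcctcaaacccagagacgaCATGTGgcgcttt
Akap6 (chr12:52699133-52699432, plus strand): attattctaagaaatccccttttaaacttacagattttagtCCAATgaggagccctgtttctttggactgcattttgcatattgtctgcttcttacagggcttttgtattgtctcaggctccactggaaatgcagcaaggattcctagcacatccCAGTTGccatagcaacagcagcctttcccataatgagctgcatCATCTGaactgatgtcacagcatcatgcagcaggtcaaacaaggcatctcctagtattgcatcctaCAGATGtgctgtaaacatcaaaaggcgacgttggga
Cxcl13 (chr5:95956689-95956988, plus strand): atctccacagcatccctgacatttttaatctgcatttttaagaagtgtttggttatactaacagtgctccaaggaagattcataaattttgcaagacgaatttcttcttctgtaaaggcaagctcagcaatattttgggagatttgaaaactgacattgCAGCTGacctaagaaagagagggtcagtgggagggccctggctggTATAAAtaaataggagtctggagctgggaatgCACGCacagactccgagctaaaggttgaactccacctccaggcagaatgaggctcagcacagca
Cyp1b1 (chr17:79715012-79715311, minus strand): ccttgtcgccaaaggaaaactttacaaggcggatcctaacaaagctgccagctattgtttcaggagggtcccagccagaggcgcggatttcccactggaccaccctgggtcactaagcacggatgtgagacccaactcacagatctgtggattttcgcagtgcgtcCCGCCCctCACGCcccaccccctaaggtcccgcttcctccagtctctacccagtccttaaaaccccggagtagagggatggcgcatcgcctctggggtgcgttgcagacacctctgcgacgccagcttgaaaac

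The motifs searched were the TATA box TATAAA, the CCAAT box CCAAT, the GC box GGGCGG, the E-box CANNTG, the dioxin response core GCGTG and the NOBOX element TAATTA or TAATTG, each on both strands. No marked motifs overlapped. Gabra5 and Akap6 each held 1 CCAAT box and 3 E-boxes. Cxcl13 held the only TATA box, at position -46, with 1 E-box and 1 dioxin response core. Cyp1b1, which is known for its dioxin response, held a GC box at position -84 and a dioxin response core at -76. Of the windows not printed, Ust held 2 GC boxes and no other motif, and Frmd3 held 1 CCAAT box, 1 GC box and 1 dioxin response core. The NOBOX element, bound by an oocyte homeodomain factor, was in no window. Over 27025 mouse promoter windows, 14.2% held a TATA box, 37.9% a CCAAT box, 35.9% a GC box, 72.1% an E-box, 32.5% a dioxin response core and 12.6% a NOBOX element. A match describes these letters only.

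CpG density split the genes. The ratio of observed to expected CpG was 0.141 for Akap6 and 0.208 for Cxcl13, against a median of 0.389 over all windows. It was above that median in the other windows, at 0.541 for Gabra5, 0.550 for Frmd3, 0.580 for Ust and 0.642 for Cyp1b1.

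The libraries held 29380403 to 58285057 counts on transcripts, and levels are given as CPM, the count divided by the library total in megareads and scaled by TMM. A count of 3, the limit that a count of 0 allows, corresponded to 0.0515 to 0.102 CPM before scaling. Such limits cover counting error only. Ago2 was at 24.0 to 25.4 CPM in Ago2 fl/fl, 12.4 to 13.7 in Ago2 ADH and 5.30 to 7.17 in Ago2 null libraries. Dicer1 was higher in Dicer KO (1679 to 1943 CPM) than in Dicer WT libraries (745 to 779 CPM). These counts take in the whole transcript, undeleted exons included, so they do not check the Dicer label. The 13 oocyte markers summed to 11780 to 17940 CPM in every library. The 16 granulosa and cumulus markers summed to 79.3 to 86.2 CPM in Ago2 fl/fl, 67.6 to 72.5 in Ago2 ADH, 58.6 to 62.5 in Ago2 null, 98.1 to 105 in Dicer WT and 82.0 to 85.3 in Dicer KO libraries. Most of that sum was Cyp19a1 and Nr5a2. Fshr averaged 0.0861 to 0.869 CPM over the groups, and Ptx3 was at 0 in every library outside Ago2 ADH. Single granulosa and cumulus markers went both ways. In Ago2 ADH against Ago2 fl/fl oocytes Cyp11a1 averaged 4.54 against 1.41 CPM and Inha 1.44 against 0.753. Fshr averaged 0.259 against 0.869 CPM there, and Has2 0.42 against 0.882. Theca and stroma markers summed to 1.97 to 3.33 CPM, and the 8 of 10 blood and immune markers in the files to 0.648 to 1.74 CPM. The part of the lower granulosa sum in the falls below was not tested. The lane tags of the files differ between the Ago2 genotypes and are shared within each, so lane and Ago2 genotype cannot be told apart.

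All 6 genes were lower in every mutant library than in every library of the matching control. In Ago2 ADH oocytes they stood at 5.52% (Frmd3) to 20.8% (Cxcl13) of the control mean, in Ago2 null oocytes at 7.64% (Frmd3) to 20.8% (Cxcl13), and in Dicer KO oocytes at 6.32% (Cxcl13) to 62.5% (Akap6). Over all transcripts tested, 20.1% were called lower in Ago2 ADH, 19.1% in Ago2 null and 17.8% in Dicer KO oocytes at a false discovery rate (FDR) of 1%. The share of all transcripts with every mutant library below every control library was not computed. Nor was the share without overlap between any other groups, so nothing is read from such gaps below. Because the choice used these contrasts, nothing is read from the genes' place among all transcripts. Both Ago2 comparisons share the Ago2 fl/fl libraries. In pools of oocytes, fewer cells holding a transcript and less of it per cell cannot be told apart.

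**Figure D1:**
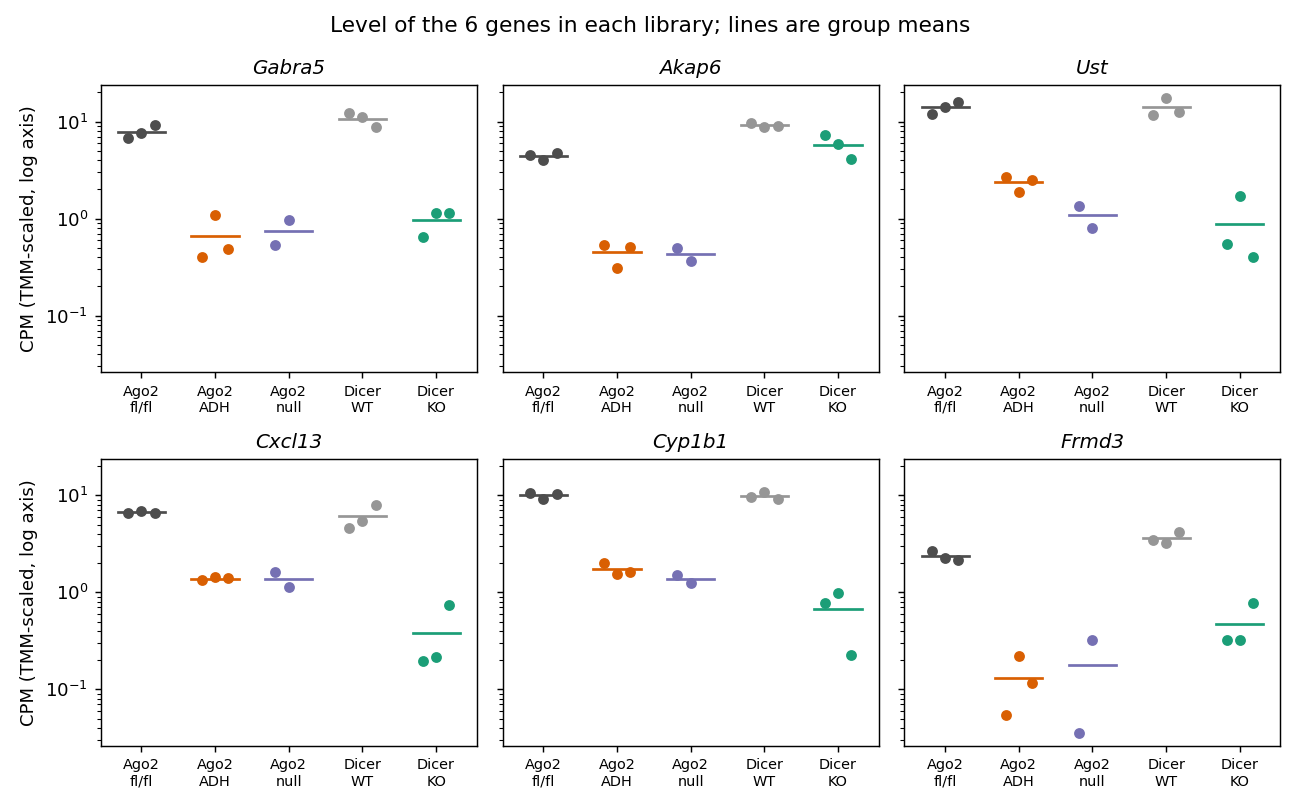
Level of each gene in each of the 14 libraries, in CPM scaled by TMM on a log axis, with 1 point per library and a line at the group mean. Every mutant point lies below every point of its own control, and the Dicer KO points of Akap6 (4.17 to 7.22 CPM) lie closest to their control.

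The list is not the complete set of the largest falls. Among 13310 genes tested in all 3 mutant against control comparisons, 49 had a log2 fold change of -2 or lower in every comparison, and 5 of the chosen genes were among them. Akap6 was the exception. Only 7 genes reached -3 in every comparison, and of the chosen genes Gabra5 alone was one of them. Counted from the largest fall, Akap6 stood in place 21 of 13979 in Ago2 ADH and 34 of 14302 in Ago2 null oocytes, but in place 1523 of 13799 in Dicer KO oocytes.

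Gabra5 (NM_176942, chr7:57407672-57510009 in the GENCODE model of GRCm38, as for the transcripts that follow, 10 exons) had 392, 448 and 484 counts in the Ago2 fl/fl libraries. It had 22, 59 and 21 counts in Ago2 ADH and 30 and 51 in Ago2 null libraries. In the Dicer series it had 475, 447 and 369 counts in WT and 20, 32 and 40 in KO libraries. The levels therefore fell into a high class of both controls and a low class of all 3 mutants, whose libraries overlapped one another (0.401 to 1.14 CPM). Mean levels were 7.84 ± 1.26 CPM (SD, n = 3) in Ago2 fl/fl, 0.655 ± 0.369 (n = 3) in Ago2 ADH, 0.754 ± 0.308 (n = 2) in Ago2 null, 10.7 ± 1.78 (n = 3) in Dicer WT and 0.977 ± 0.282 (n = 3) in Dicer KO oocytes. The log2 fold change was -3.52 (SE 0.26) in Ago2 ADH, -3.35 (SE 0.25) in Ago2 null and -3.45 (SE 0.23) in Dicer KO oocytes. Ago2 ADH replicate 2 was the highest of its group, and without it the Ago2 ADH value was -4.10. Exons of the counted Gabra5 transcript overlap those of Gm9962 on the opposite strand by 148 bases, and reads there cannot be assigned because counting ignored strand.

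Akap6 (NM_198111, chr12:52699383-53155599, 14 exons) was the gene whose level depended most on the series. Its counts were 265, 237 and 248 in Ago2 fl/fl libraries. They were 29, 17 and 22 in Ago2 ADH and 28 and 19 in Ago2 null libraries, so the 2 mutants overlapped. In the Dicer series the counts were 375, 358 and 378 in WT and 222, 165 and 146 in KO libraries. Dicer KO oocytes thus kept 62.5% of the WT level, and their mean of 5.75 ± 1.53 CPM (n = 3) stood above the 4.43 ± 0.382 CPM (n = 3) of the Ago2 controls, with overlapping libraries. The Dicer WT mean was 9.21 ± 0.430 CPM (n = 3), and its libraries did not overlap those of the Ago2 controls. The log2 fold changes were -3.25 (SE 0.25), -3.32 (SE 0.27) and -0.69 (SE 0.19) in Ago2 ADH, Ago2 null and Dicer KO oocytes. Differences between the Ago2 and Dicer series were not tested for this or any other of the 6. For Dicer KO oocytes the name of a large loss does not describe Akap6.

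Ust (NM_177387, chr10:8204809-8518825, 8 exons) had the highest control CPM of the 6, with 696, 847 and 838 counts in Ago2 fl/fl and 458, 705 and 529 in Dicer WT libraries. It had 149, 103 and 108 counts in Ago2 ADH and 76 and 42 in Ago2 null libraries. In Dicer KO libraries it had 17, 48 and 14 counts. The order of mean levels was therefore Ago2 fl/fl (14.1 ± 2.00 CPM, n = 3) and Dicer WT (11.9 to 17.6 CPM, n = 3), which overlapped, then Ago2 ADH (2.37 ± 0.433, n = 3), Ago2 null (1.08 ± 0.394, n = 2) and Dicer KO (0.886 ± 0.714, n = 3). Dicer KO overlapped Ago2 null, whereas Ago2 ADH lay above both. The log2 fold changes were -2.53 (SE 0.16), -3.66 (SE 0.21) and -4.03 (SE 0.33) in Ago2 ADH, Ago2 null and Dicer KO oocytes. Without Dicer KO replicate 2, the highest of its group, the Dicer KO value was -4.88.

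Cxcl13 (NM_018866, chr5:95956951-95961068, 4 exons) had 381, 411 and 342 counts in Ago2 fl/fl libraries. Ago2 ADH libraries had 73, 78 and 61 counts and Ago2 null libraries 91 and 60. These mutant libraries overlapped, and the Ago2 ADH libraries were the tightest mutant group of any gene here, at 1.39 ± 0.0507 CPM (n = 3). Dicer WT libraries had 180, 221 and 338 counts and Dicer KO libraries 6, 6 and 26. All Dicer KO libraries (0.195 to 0.742 CPM) lay below all Ago2 mutant libraries (1.14 to 1.63 CPM), while the controls of both series overlapped. The log2 fold changes were -2.22 (SE 0.17), -2.23 (SE 0.20) and -3.93 (SE 0.38). Dicer KO replicate 3 held the 26 counts, and without it the Dicer KO value was -4.88.

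Cyp1b1 (NM_009994, chr17:79706953-79715041, 3 exons) had nearly the same level in both controls, with 621, 547 and 541 counts in Ago2 fl/fl and 371, 434 and 387 in Dicer WT libraries. These corresponded to 10.1 ± 0.761 CPM (n = 3) and 9.88 ± 0.824 CPM (n = 3). Counts were 111, 85 and 71 in Ago2 ADH and 84 and 65 in Ago2 null libraries. Dicer KO libraries had 24, 28 and 8 counts. As for Cxcl13, every Dicer KO library (0.228 to 0.995 CPM) lay below every Ago2 mutant library (1.24 to 2.02 CPM). These libraries belong to separate series, and the share of all transcripts with such a gap was not computed. Nothing is therefore read from it for Ust, Cxcl13 or Cyp1b1. The log2 fold changes were -2.48 (SE 0.15), -2.84 (SE 0.18) and -3.92 (SE 0.30) in Ago2 ADH, Ago2 null and Dicer KO oocytes.

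Frmd3 (NM_172869, chr4:74013444-74189928, 14 exons) was the least counted of the 6. It had 155, 134 and 112 counts in Ago2 fl/fl and 133, 131 and 176 in Dicer WT libraries. Its counts were 3, 12 and 5 in Ago2 ADH, 2 and 17 in Ago2 null and 10, 9 and 27 in Dicer KO libraries. Ago2 ADH replicate 1 and Ago2 null replicate 1 were thus at or below 3 counts, and the mutant libraries spread widely. The log2 fold changes were -4.10 (SE 0.39), -3.69 (SE 0.50) and -2.91 (SE 0.35). A single library set the Ago2 null value, which was -5.93 without replicate 2 and -2.82 without replicate 1. Without Ago2 ADH replicate 2 the Ago2 ADH value was -4.75, and without Dicer KO replicate 3 the Dicer KO value was -3.48. A second Frmd3 transcript from the same locus, NM_001163732 with 15 exons, had 59, 44 and 32 counts in Ago2 fl/fl and 60, 40 and 53 in Dicer WT libraries. Its counts were 0, 8 and 0 in Ago2 ADH, 1 and 6 in Ago2 null and 0, 3 and 7 in Dicer KO libraries, again below every control. Both transcripts come from the same locus and the same libraries, so they are not independent.

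Per kilobase of transcript, the control levels spanned a wide range among the 6 genes. In Ago2 fl/fl oocytes they were 5.80 ± 0.199 CPM per kb for Cxcl13, 3.33 ± 0.473 for Ust, 2.94 ± 0.472 for Gabra5, 1.97 ± 0.148 for Cyp1b1, 0.569 ± 0.0677 for Frmd3 and 0.298 ± 0.0257 for Akap6 (each SD, n = 3). Ust and Gabra5 overlapped, and the other neighbours in this order did not. In Dicer WT oocytes Gabra5 (4.02 ± 0.666) and Ust (3.31 ± 0.732) changed places, and the libraries of both overlapped those of Cxcl13 (5.28 ± 1.54). Among 13054 genes with a length, Cxcl13 stood at the 55.1 percentile and Akap6 at the 12.7 percentile of control levels per kb in Ago2 fl/fl oocytes. In Ago2 ADH oocytes they stood at the 28.5 and 0.169 percentiles.

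**Figure D2:**
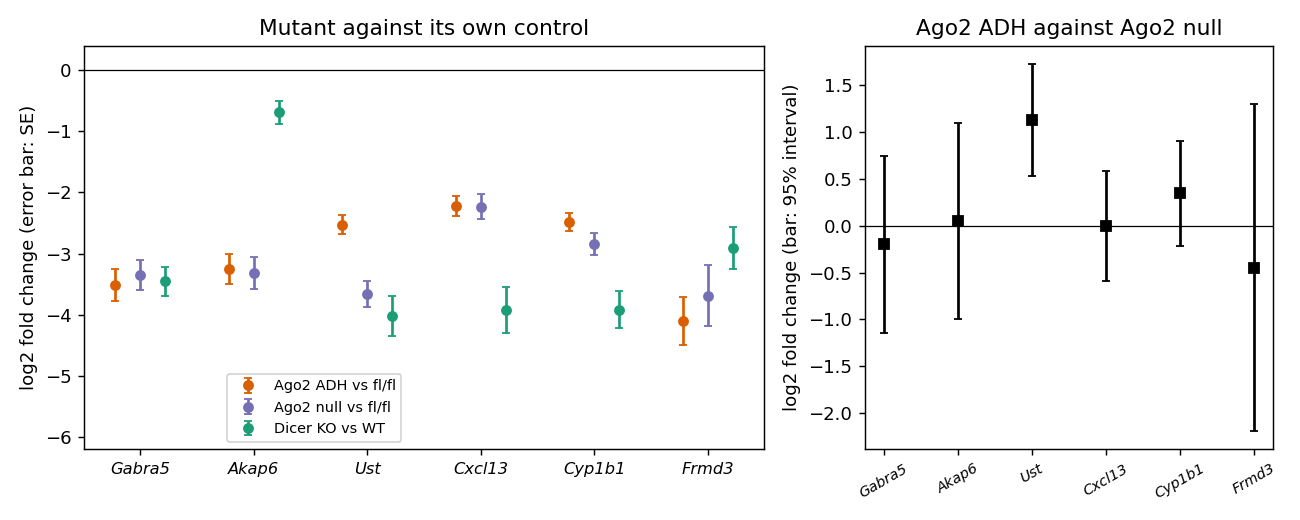
Log2 fold change of each gene in each mutant against its own control (left, error bars are the SE) and in Ago2 ADH against Ago2 null oocytes (right, bars are 95% intervals). On the left all values lie below 0, with Akap6 in Dicer KO at -0.69, and on the right all intervals but that of Ust include 0.

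To ask whether an AGO2 protein that is present but cannot slice left these genes at another level than no AGO2, Ago2 ADH oocytes were compared with Ago2 null oocytes. This contrast played no part in the choice, so the genes could be tested in it. Of the 6 genes 0 were mis-regulated at an FDR of 1% (edgeR quasi-likelihood test), 0 were called by DESeq2, and 1 had an unadjusted p under 0.05. Over all transcripts 0.119% were called, which is 23 of 19306. By unadjusted p under 0.05 there were 1931, and by DESeq2 81.

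Ust differed most. Its 3 Ago2 ADH libraries (1.88, 2.50 and 2.72 CPM) all lay above the 2 Ago2 null libraries (0.800 and 1.36 CPM). The log2 fold change was 1.12 (SE 0.30, 95% interval 0.53 to 1.72). The adjusted p of edgeR's quasi-likelihood test was 0.172 and ranged from 0.0382 to 0.929 over the alternatives. The Cyp1b1 libraries did not overlap either, with 1.55 to 2.02 CPM in Ago2 ADH and 1.24 to 1.501 CPM in Ago2 null, for a log2 fold change of 0.34 (95% interval -0.22 to 0.90, adjusted p = 0.747). Nothing is read from this lack of overlap, since the share of all transcripts that show it was not computed. For Gabra5, Akap6 and Cxcl13 the libraries overlapped. Their log2 fold changes were -0.20 (95% interval -1.14 to 0.75), 0.05 (-0.99 to 1.09) and -0.00043 (-0.58 to 0.58), with adjusted p of 0.936, 0.988 and 1.000. Frmd3, at 2 to 17 counts, gave the widest interval, -2.18 to 1.29 around -0.45 (adjusted p = 0.918). These intervals show only roughly which differences remain possible with 3 and 2 libraries. They were set from the SE by a normal distribution, so they are narrower than the quasi-likelihood test would give. Without Ago2 null replicate 2 the Frmd3 value was 1.791, outside its interval. Even the Ust difference of 1.12 was not called at an FDR of 1%.

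The genes around each pathway were examined in lists of 201 genes written for the 6 genes, of which 198 were in the files. Over the lists 38 of 149 tested genes were lower and 29 higher in Ago2 ADH, 36 and 24 of 153 in Ago2 null, and 32 and 27 of 144 in Dicer KO oocytes. That is 25.5% lower and 19.5% higher in Ago2 ADH, where 20.1% of all transcripts were lower and 20.5% higher. In Ago2 null oocytes it was 23.5% and 15.7%, against 19.1% and 18.1%, and in Dicer KO oocytes 22.2% and 18.8%, against 17.8% and 16.7%. Most list shares were thus near those of all transcripts. Between Ago2 ADH and Ago2 null oocytes 0 of 151 were called by edgeR, 0 by DESeq2, and 16 had an unadjusted p under 0.05.

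**Figure D3:**
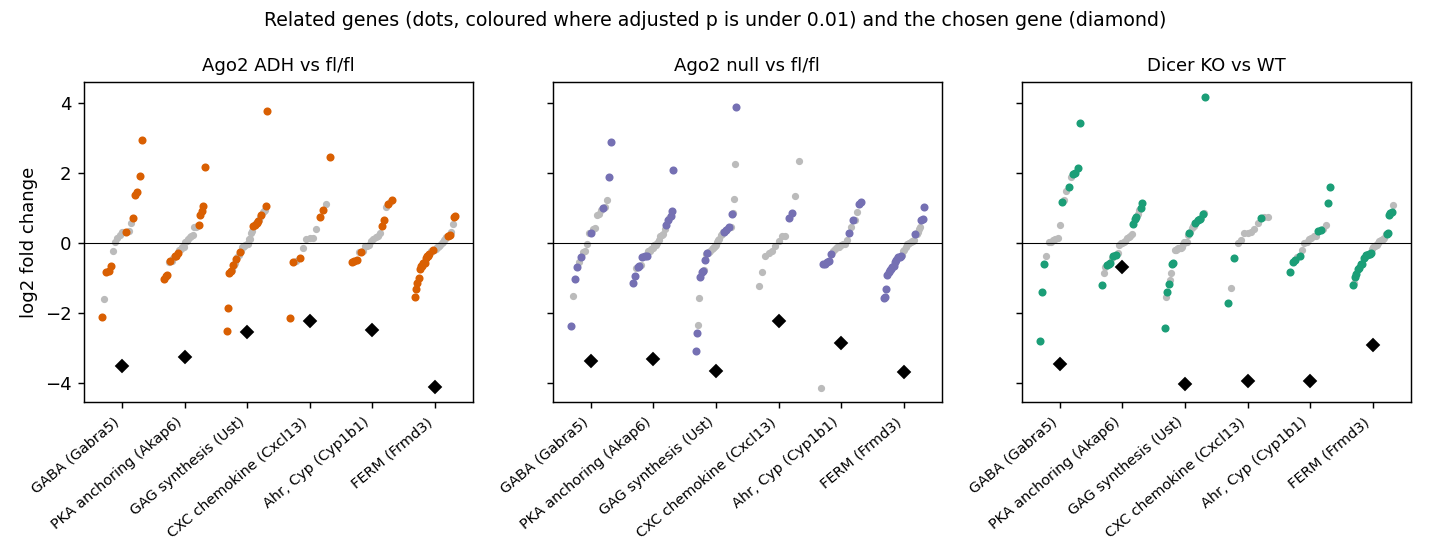
Log2 fold change of each tested gene of the 6 lists (dots, coloured where the adjusted p is under 0.01) and of the chosen gene of each list (diamond), in the 3 mutant against control comparisons. Dots lie on both sides of 0 in each list. The diamonds were chosen for their falls in these comparisons and the dots were not, so their relative places are not a result.

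The GABA list, of receptor subunits, GABA synthesis and transport genes and receptor-binding proteins, went both ways. In Ago2 ADH oocytes 4 of 19 tested genes were lower and 6 higher, in Ago2 null 4 and 4 of 21, and in Dicer KO 3 and 6 of 19. In that order 21.1%, 19.0% and 15.8% were lower, beside 20.1%, 19.1% and 17.8% of all transcripts. The share higher was 31.6%, 19.0% and 31.6%, beside 20.5%, 18.1% and 16.7%. Whether the list differs from other genes was not tested. The list median was 0.30, 0.30 and 0.51, beside 0.0069, 0.0018 and -0.0044 over all transcripts. Gabrg3, encoding a gamma subunit and lying next to Gabra5, rose with log2 fold changes of 2.95 (SE 0.15), 2.88 (SE 0.17) and 3.43 (SE 0.20), from 1.62 CPM in Ago2 fl/fl to 12.1 in Ago2 ADH. Subunit genes also fell. Gabrq (theta) fell by 2.11, 2.36 and 2.78 on the log2 scale, and Gabrr3 (rho) by 0.82, 1.03 and 1.39. Outside the receptor, Gad2, which makes GABA, rose (1.39, 1.01 and 1.60), as did Plcl1, a receptor trafficking protein gene (1.92, 1.89 and 2.00). The transporter gene Slc6a12 rose in Ago2 ADH (1.45) and Dicer KO (1.98), with a value of 0.83 in Ago2 null oocytes (adjusted p = 0.0768). Rdx, the most abundant gene of the list and also a FERM gene, fell by 0.64, 0.68 and 0.60.

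Anchoring proteins and other partners of protein kinase A were likewise split, with 7 lower and 5 higher of 28 in both Ago2 mutants and 6 and 5 of 27 in Dicer KO oocytes. The median was -0.046, -0.097 and 0.0094. Akap12, the most abundant of them and a scaffold of kinase A at the plasma membrane, rose by 1.07 (SE 0.052), 0.92 (SE 0.059) and 1.14 (SE 0.058), from 257 to 523 CPM in Ago2 ADH oocytes. Pakap, the locus that holds Akap2, rose by 0.91, 0.65 and 1.01. Akap17b fell by 1.03, 1.15 and 1.19. Syne1, whose product nesprin-1 binds mAKAP at the nuclear envelope, rose by 2.18 and 2.08 in the Ago2 mutants and had a value of 0.95 in Dicer KO oocytes (adjusted p = 0.0116).

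Genes of glycosaminoglycan synthesis, the setting of Ust, were called in both directions. In Ago2 ADH oocytes 7 were lower and 7 higher of 36, in Ago2 null 7 and 5 of 37, and in Dicer KO 5 and 6 of 34. Lower genes made up 19.4%, 18.9% and 14.7%, beside 20.1%, 19.1% and 17.8% of all transcripts. Higher genes made up 19.4%, 13.5% and 17.6%, beside 20.5%, 18.1% and 16.7%. These list shares were near or below those of all transcripts. The list median was -0.029, -0.042 and 0.026. Chst11, a chondroitin 4-O-sulfotransferase gene, fell by 2.50 (SE 0.14), 2.58 (SE 0.12) and 2.42 (SE 0.19), from 19.6 to 3.38 CPM in Ago2 ADH oocytes. Hs3st3a1, a heparan sulfate 3-O-sulfotransferase gene, rose by 3.78 (SE 0.21), 3.89 (SE 0.22) and 4.17 (SE 0.26), from 0.492 to 6.59 CPM. Extl3, which starts heparan chains, fell by 0.79, 0.96 and 1.18. Glce, the epimerase of heparan sulfate and the most abundant of the list, rose by 0.52, 0.47 and 0.84. Ndst2 rose in Ago2 ADH oocytes (1.06), with values of 0.47 and 0.022 in Ago2 null and Dicer KO oocytes (adjusted p = 0.189 and 0.966). Ugdh, which makes the uronic acid donor, fell by 1.40 in Dicer KO oocytes, with values of 0.94 and 0.85 in the Ago2 mutants (adjusted p = 0.0307 for both).

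Few chemokine genes had enough counts to be tested. Of the 29 CXC chemokines, receptors and upstream genes in the files 13 were tested in each mutant against control comparison, and 3 were lower and 3 higher in Ago2 ADH, 0 and 2 in Ago2 null, and 2 and 1 in Dicer KO oocytes. That is 23.1%, 0.0% and 15.4% lower, beside 20.1%, 19.1% and 17.8% of all transcripts. It is 23.1%, 15.4% and 7.69% higher, beside 20.5%, 18.1% and 16.7%. The median was 0.16, 0.065 and 0.30. Cxcr5, the receptor of CXCL13, averaged 0.571 counts per library over the 14 libraries and was not tested; it is named for its role. Cxcr3, the most abundant, fell by 0.54 in Ago2 ADH oocytes, with values of -0.38 in Ago2 null (adjusted p = 0.0111) and 0.078 in Dicer KO oocytes (adjusted p = 0.736). Cxcr4, the receptor of CXCL12, fell by 2.14 in Ago2 ADH oocytes and by 1.70 where Dicer was lost, with a value of -0.83 in Ago2 null (adjusted p = 0.128).

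The list around Cyp1b1 held the aryl hydrocarbon receptor, its partners and targets and other P450 genes. Here 4 were lower and 4 higher of 20 in Ago2 ADH, 5 and 4 of 21 in Ago2 null, and 4 and 4 of 18 in Dicer KO oocytes, with medians of 0.085, -0.065 and 0.13. Ahr itself, named for its role after its values were seen, fell by 0.47, 0.55 and 0.54 (largest adjusted p = 1.29e-05). The related P450 genes Cyp1a1 and Cyp1a2 averaged 1.57 and 1.79 counts per library and were not tested. Hsp90ab1, a chaperone gene of the receptor, rose by 1.22 (SE 0.046), 1.16 (SE 0.053) and 1.59 (SE 0.061). The most abundant gene, Hsp90aa1, had values of -0.041, -0.11 and 0.020, with adjusted p of 0.566, 0.103 and 0.825. Cyp51, the sterol 14-demethylase gene whose product yields a meiosis-activating sterol, rose by 1.12, 1.12 and 1.14.

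FERM genes and their spectrin partners were the list with the most lower genes. In both Ago2 mutants 14 of 34 were lower and 4 higher, and in Dicer KO oocytes 13 and 5 of 34. The lower share was 41.2%, 41.2% and 38.2%, beside 20.1%, 19.1% and 17.8% of all transcripts, and the median -0.19, -0.22 and -0.14. Whether the list differs from other genes was not tested. Among the named members, Epb41l3, which links membrane proteins to spectrin and actin, fell by 1.31 (SE 0.097), 1.31 (SE 0.11) and 1.21 (SE 0.13), from 24.4 to 9.54 CPM in Ago2 ADH oocytes. The FERM-domain tyrosine phosphatase genes Ptpn3 (-1.54, -1.55 and -0.98) and Ptpn13 (-1.15, -1.56 and -0.74) also fell. Frmd6 rose in Ago2 null oocytes (1.02), with values of 0.024 and -0.39 in Ago2 ADH and Dicer KO oocytes (adjusted p = 0.962 and 0.296).

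Genes next to the 6 were measured in the same fits. Of the 12 nearest tested neighbours, 7 were lower and 3 higher in Ago2 ADH, 6 and 3 in Ago2 null, and 5 and 1 in Dicer KO oocytes. Over all transcripts 20.1% were lower and 20.5% higher in Ago2 ADH, 19.1% and 18.1% in Ago2 null, and 17.8% and 16.7% in Dicer KO oocytes, and with 12 neighbours the difference from these shares was not tested. Between Ago2 ADH and Ago2 null oocytes 0 were called, with a lowest adjusted p of 0.495. The neighbours of Ust, Tab2 (-0.45, -0.42 and -0.60) and Sash1 (-0.46, -0.55 and -0.50), fell modestly. So did those of Cxcl13, E330014E10Rik (-0.79, -0.71 and -1.20) and the deadenylase gene Cnot6l (-0.33, -0.49 and -0.22). Next to Cyp1b1, Atl2 fell by 0.49, 0.41 and 0.36, and Rmdn2 fell by 1.33 in Ago2 ADH oocytes, with values of -0.63 and -0.60 elsewhere (adjusted p = 0.111 and 0.310).

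Other neighbours went the opposite way. Gabrg3 lies 20.5 kb from Gabra5 and rose as given above, whereas Atp10a, 1065 kb away on the other side, fell by 0.55 and 0.60 in the Ago2 mutants. Kdm4c, a histone demethylase gene 40.3 kb from Frmd3, rose by 2.30 and 1.94 in the Ago2 mutants, with a value of 0.63 in Dicer KO oocytes (adjusted p = 0.382). Rasef, on the other side of Frmd3, had values of -0.29, -0.73 and 0.43 (adjusted p = 0.424, 0.0708 and 0.383). Next to Akap6, Arhgap5 rose by 0.72 and 0.66 in the Ago2 mutants, with a value of -0.11 in Dicer KO oocytes (adjusted p = 0.646). Npas3 had values of 0.12, 0.036 and 0.078 (adjusted p = 0.595, 0.896 and 0.831).

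**Figure D4:**
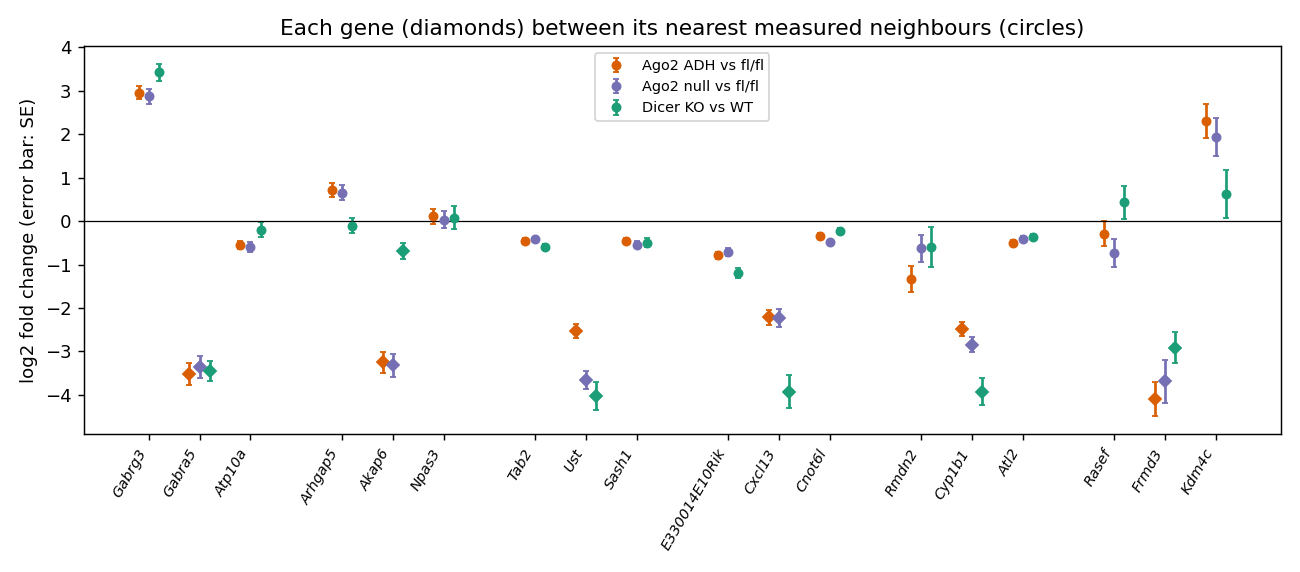
Log2 fold change with its SE of each chosen gene (diamonds) and of the nearest tested gene on either side (circles), in genome order, for the 3 mutant against control comparisons. Neighbours lie between -1.34 (Rmdn2) and 3.43 (Gabrg3), and the diamonds were chosen for their falls, so their place below the circles is not a result.

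The genes were also searched for those that tracked them over the libraries. Pearson's r was computed over the 14 libraries on log2 CPM centred within each series, among 10344 genes with a mean of at least 100 counts, so r mostly carries the differences between the 5 groups. The closest to Gabra5 were Slc4a5 (r = 0.985), a bicarbonate transporter gene, and 7420426K07Rik (0.984). Eps8l3 (0.985) and Iqcg (0.983) tracked Ust, Med14 (0.987) and Rab3b (0.983) tracked Cxcl13, and Cdc40 (0.983) and Nrg1 (0.981) tracked Cyp1b1. Reg1 (0.973) and Lcp2 (0.971) were the closest to Frmd3. Akap6 had the lowest values, with Gpr63 (0.968) and Serpinb8 (0.961), whose log2 fold changes were -0.18 and -0.28 in Dicer KO oocytes beside -0.87 and -1.56 in Ago2 ADH oocytes. A high r does not mean a change of like size. In Ago2 ADH, Ago2 null and Dicer KO oocytes Med14 had log2 fold changes of -0.25, -0.30 and -0.53. Those of Cxcl13 were -2.22, -2.23 and -3.93. Slc4a5 had -0.56, -0.61 and -0.62, beside -3.52, -3.35 and -3.45 for Gabra5, while Reg1 had -2.66, -2.22 and -1.845. Among the 6 themselves, r ran from 0.614 for Akap6 with Cxcl13 to 0.976 for Ust with Cyp1b1, which the choice of genes that all fell in the mutants makes high.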

How the data were processed

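The authors amplified cDNA from oocyte lysates, aligned paired-end reads to mm10 and its refGene transcripts with TopHat, with options that differed by read length, and counted them with htseq-count in intersection-strict mode without regard to strand. The submitters' processing notes name TopHat2 2.0.7, HTSeq 0.6.1 and DESeq 1.10.0. The deposited values are raw counts per RefSeq transcript, not normalized, with tallies of reads outside transcripts and of alignments that were not unique, which were left out of library sizes and tests. Genotypes and replicate numbers came from the labels.

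Of 26495 transcripts, 26081 were matched to symbols through RefSeq (GRCm38.p6) and 113 through GENCODE. The transcript with the highest mean count stood for a gene. Each comparison was fitted on its own libraries with edgeR 4.0.16 in R 4.3.3 (filterByExpr with a minimum count of 10, TMM, quasi-likelihood test, Benjamini-Hochberg adjustment over all transcripts tested, FDR of 1%). The fits were first tested on simulated data. Tables and plots used Python 3.11.15, numpy 2.4.6, pandas 2.3.3 and matplotlib 3.10.9. The cDNA was amplified and carried no molecular identifiers, so reads are not independent molecules. Libraries came from separate collections, and p-values measure the spread between them. No replicate pair agreed within sampling noise (chi-square per degree of freedom of 6.54 to 14.9).

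The 6 genes, the lists and the tests were chosen with earlier results of these data known. Besides the 6 genes, the genes named were those of the lists called at an FDR of 1% with an absolute log2 fold change of at least 1 in a mutant against control comparison and a mean of at least 50 counts, the most abundant gene of each list, the nearest tested neighbours and the 2 genes most similar in pattern to each of the 6. Cxcr5, Ahr, Cyp1a1 and Cyp1a2 were added for their roles. A gene that met this rule is not reported here. Alternatives were DESeq2 1.42.0, RLE or total-count scaling, no filter, an FDR of 5%, all 5 groups in one fit, 1 transcript per gene, each replicate left out and a replicate block. Deviations of same-numbered libraries were not correlated over the transcripts (r from -0.076 to 0.042). That does not settle whether such libraries were collected together, and the main fits treated them as unpaired. Protein sequences were not used here.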

Additional observations from a re-analysis of the deposited data

Results flagged for a closer look

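The tally of alignments that were not unique, which enters no comparison, was higher in every mutant library than in every library of the matching control. Per read counted on transcripts it averaged 1.61 in Ago2 ADH (1.58 to 1.66, n = 3), 1.611 in Ago2 null (1.57 to 1.66, n = 2) and 1.031 in Dicer KO libraries (0.939 to 1.19, n = 3). The control values were 0.557 to 0.597 in Ago2 fl/fl and 0.388 to 0.536 in Dicer WT libraries. A read with several alignments can be tallied more than once, so the tally does not count reads. The 6 genes were lower in the same libraries, and the part of this tally in their falls was not tested.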

How the results depend on the processing

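In the 3 mutant against control comparisons every gene of the 6 kept a negative log2 fold change under every alternative run, and the counts of transcripts and of related genes called stayed within 1.5 times. Between Ago2 ADH and Ago2 null oocytes no gene of the 6 passed an FDR of 1% under any alternative. The count of transcripts called there was 23, and became 81 with DESeq2, 94 without the filter, 56 at an FDR of 5%, 142 with the replicate block and 6 to 21 with a library left out. The replicate block, which groups same-numbered libraries, called 1 related gene, Ndst1, a heparan N-sulfotransferase gene. Its log2 fold change was 0.69 (adjusted p = 0.00688 by edgeR's quasi-likelihood test), beside 0.67 and 0.101 without the block. Signs changed only in values near 0 or resting on few counts. Cxcl13, at -0.00043, became 0.002 with DESeq2, with RLE and with all 5 groups in one fit, 0.006 with 1 transcript per gene and 0.003 with the replicate block, and ran from -0.232 to 0.284 with a library left out. Akap6 became -0.065 with the replicate block and ran from -0.161 to 0.312 with a library left out, Gabra5 from -0.759 to 0.287 and Frmd3 from -1.296 to 1.791, the latter in 4 fits since Frmd3 could not be fitted in another. Ust ran from 0.795 to 1.565 and Cyp1b1 from 0.21 to 0.496. The cause was not tested. Counts of 2 to 30 in several mutant libraries limit the precision of the folds, above all for Frmd3.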
